A study of Mus musculus with 24 samples.

Results

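Control wounds of diabetic mice were compared between day 14 and day 1. The comparison used 6 of the 24 mouse RNA libraries of the series, chosen by title: 3 control libraries of day 1 and 3 control libraries of day 14. Each library held counts for the same 52976 gene symbols, of which 17237 had enough counts to be tested. The series studies a peptide hydrogel named Fmoc-KYF-AgNCs-3S1C-Hyd2, laid on wounds of diabetic mice and also given to RAW264.7 macrophage cultures. Wounds were taken at days 1, 7 and 14 with and without the gel, in groups of 3 libraries. Control wounds carried the treatment label Diabetic control and the tissue label wound tissue, and the hydrogel wounds differed from them by the gel alone as far as the labels say. All mice in both arms were diabetic, so no group shows the healing of non-diabetic skin. The strain, sex and age of the mice, the way diabetes was induced and the kind and depth of the wound are not given in the sources used here. Nothing in the labels says that the 3 libraries of a group came from separate animals, so a p-value here weighs a change against variation among the libraries given, part or all of which may be technical.

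A skin wound first fills with inflammatory cells, then with granulation tissue, in which fibroblasts lay down collagen and new vessels grow, and is later covered by migrating keratinocytes and remodelled. Fibroblasts that contract and stiffen the new tissue are called myofibroblasts. Diabetic wounds are known for a long inflammatory phase and for slow formation of granulation tissue. Mouse skin holds a layer of fat and a thin sheet of striated muscle under the dermis, and a biopsy of a wound edge can take in both. Its hair follicles cycle between growth and rest, and pigment cells make melanin in the follicle during growth.

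Total counts ran from 16008128 to 19722357 read pairs in the 6 libraries, and 20755 to 23565 gene symbols per library had at least 1 count. Levels are given as CPM, counts of a gene relative to the size of its library, scaled by TMM over the 18 wound libraries, and each value is 1 library, in the order of replicates 1, 2 and 3. Changes are log2 fold changes from edgeR with the standard error after ±. Markers of skin, stroma and blood cells were found in every library: the summed level of 16 basal keratinocyte genes ran from 1167 to 7917 CPM, and that of 20 fibroblast genes from 2753 to 61239 CPM. The libraries of both days were uneven, with a coefficient of variation between libraries of 55.1% at day 1 and 51.8% at day 14. Day 1 replicate 1 held much fat and little muscle: its adipocyte genes summed to 93760 CPM, with 18705 and 11958 CPM in replicates 2 and 3, and its adult skeletal muscle genes to 9412 CPM, against 314426 and 192022 CPM. Day 14 replicate 1 was low in basal keratinocyte genes, with 1167 CPM, against 5642 and 7917 CPM, while genes of keratinocyte differentiation summed to 445 CPM there, against 490 and 887 CPM. In tissue RNA, fewer cells of a type and less RNA per cell cannot be told apart.

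At day 14 the control wounds had far more RNA of collagens and other matrix genes, and of dividing cells than at day 1, and less of many fat and mitochondrial genes. Genes of growing hair follicles were high in 2 of the 3 day 14 libraries. Of the 17237 genes, 1733 rose (10.1%) and 1240 fell (7.19%), so that 17.2% passed the edgeR quasi-likelihood test at a Benjamini-Hochberg adjusted p below 0.05. The median change over all genes was 0.05 on the log2 scale. The libraries of the 2 days did not overlap for 2696 of the 2973 genes that passed, and for 5126 of all genes (29.7%). At an unadjusted p below 0.05 stood 34.7% of all genes. The spread in that fit was shared with the 6 hydrogel libraries of the same days. These varied less than the control libraries, with coefficients of variation of 43.7% at day 1 and 14.9% at day 14. A shared spread may therefore be too small for the control contrast, and the adjusted p-values of that fit too low. With the 6 control libraries alone, 77 of 15728 genes passed in edgeR, 60 higher and 17 lower, with 3846 at an unadjusted p below 0.05, while DESeq2 and limma-voom passed 2772 and 5207. Counts given below for these 6 libraries are from edgeR unless another tool is named. All 77 were among the 2973, and all 2760 of the 2973 that were tested there changed in the same direction. When 1 control library was left out in turn, 837 of the 2973 genes passed every time, and the count ran from 1018 without day 1 replicate 2 to 4119 without day 1 replicate 1. It was 1406 without day 14 replicate 2 and 1685 without day 14 replicate 3.

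**Figure D1:**
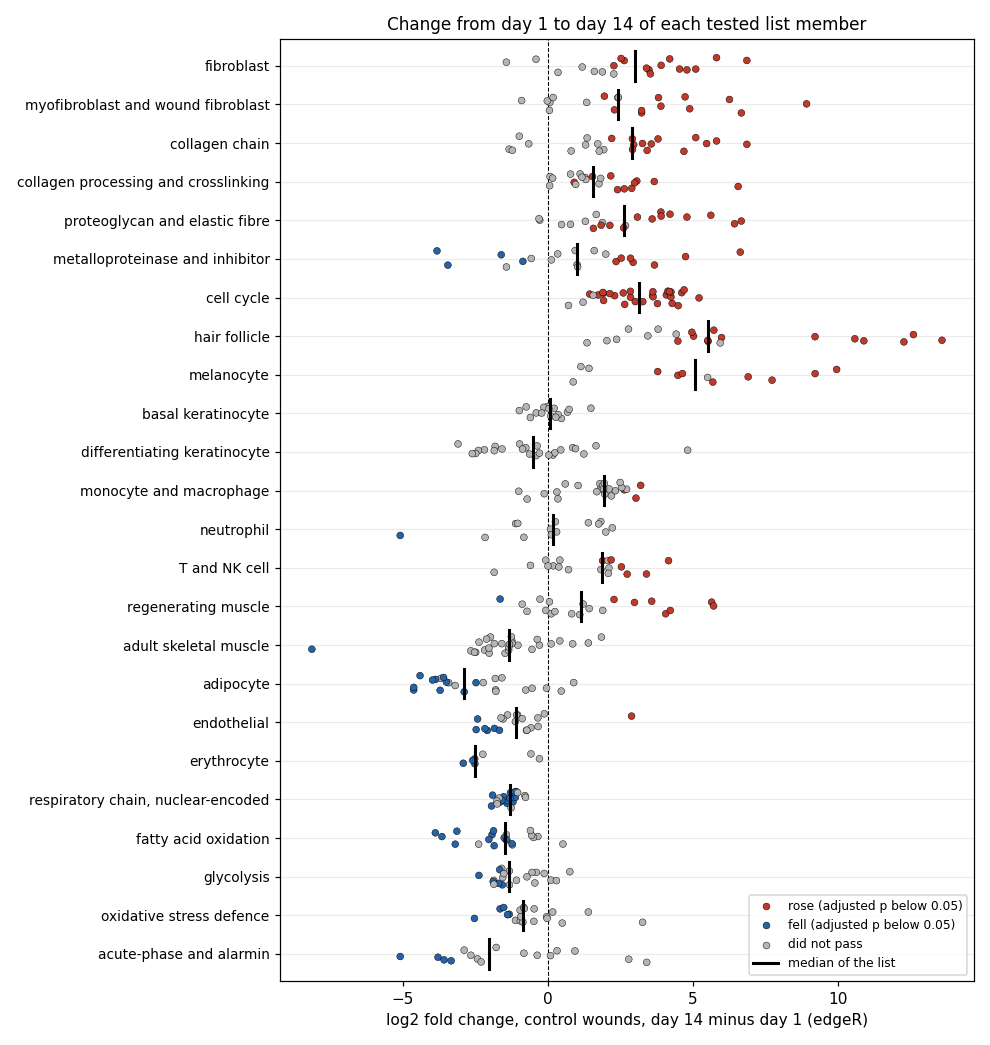
Each point is 1 tested gene of a list, placed by its log2 fold change in control wounds from day 1 to day 14 (edgeR, n = 3 libraries a day); red points rose, blue points fell, grey points did not pass, and the bar is the list's median. Fibroblast, collagen, proteoglycan, cell cycle, hair follicle and melanocyte lists have medians of 1.54 to 5.51 (points of genes without a day 1 count depend on the fit and are no bound), and fat, erythrocyte and mitochondrial lists lie left of it.

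Fibroblast and matrix genes rose together. Of 20 tested fibroblast genes 13 rose and none fell, with a median change of 3.02, and of 19 genes of myofibroblasts and wound fibroblasts 12 rose and none fell, with a median of 2.43, against 0.05 over all genes. With the 6 control libraries alone, 3 members of each list passed. Without day 1 replicate 2 the counts were 6 and 7. Without day 14 replicate 1 the fibroblast median was 1.33, with 12 risen and 1 fallen. Lrrc15, a membrane protein of activated fibroblasts (chr16:30269302-30283256, minus strand, GRCm38), had the smallest adjusted p of the genes named here. It stood at 0.408, 0.302 and 0.253 CPM at day 1 and at 136, 199 and 129.9 CPM at day 14. The day 14 libraries lay close together and far above all of day 1, a change of 8.92 ± 0.45 (adjusted p = 6.82e-06). Cdh11, a cadherin that joins fibroblasts, went from 0.544, 0.227 and 0.822 CPM to 36.9, 47.8 and 38.1 CPM, a change of 6.26 ± 0.46 (adjusted p = 0.000190). Cthrc1, a secreted protein of collagen-making fibroblasts, went from 3.67, 0.680 and 0.948 CPM to 335, 116 and 77.6 CPM (6.67 ± 0.80, adjusted p = 0.00165). Its highest day 14 library was replicate 1, the one low in basal keratinocyte genes.

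The genes first by size of change held further stromal genes. Sfrp2, a secreted Wnt regulator of dermal fibroblasts, stood at 0.340, 0.227 and 0.126 CPM at day 1 and at 211, 84.4 and 21.2 CPM at day 14 (8.85 ± 1.13, adjusted p = 0.00191). Prss35, a protease-like secreted protein, went from 0.0680, 0.151 and 0.253 CPM to 35.7, 80.7 and 65.6 CPM (8.54 ± 0.80, adjusted p = 0.000554). Crabp1, a carrier of retinoic acid, went from 0.476, 0 and 0.379 CPM to 27.2, 31.5 and 56.5 CPM (7.03 ± 0.83, adjusted p = 0.00148). No day 14 library of these genes reached down to any of day 1, which the rule that named genes by size of change required. Tnc, the matrix glycoprotein tenascin C, rose from 26.8, 6.42 and 13.7 CPM to 220.2, 599 and 409 CPM (4.73 ± 0.58, adjusted p = 0.00168). Postn, the matrix protein periostin, rose from 313, 76.4 and 45.0 CPM to 1876, 1202 and 921 CPM (3.23 ± 0.75, adjusted p = 0.0170). Its call was lost without day 1 replicate 2 (adjusted p = 0.0704, 6.51e-05 to 0.0927 over all alternatives). Acta2, the smooth muscle actin that marks myofibroblasts, did not follow. It stood at 119.6, 131 and 225 CPM at day 1 and at 124, 179 and 187 CPM at day 14, the days overlapped, and the change was 0.07 ± 0.46 (adjusted p = 0.932). The contractile genes Tagln, Cnn1, Tpm2 and Myl9 of the same list were not among its 12 risen members either. Of 13 pericyte and smooth muscle genes none passed, against 17.2% of all genes. In that list 1 fell without day 1 replicate 1, and 1 rose without day 14 replicate 1.

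Of 23 collagen chains 13 rose and none fell, with a median change of 2.91. When 1 control library was left out, 9 (without day 1 replicate 2) to 17 (without day 1 replicate 1) rose. Without day 1 replicate 3, 2 chains fell, and with the 6 control libraries alone 2 rose. Collagen I and III are the main fibrils of skin and scar. Col1a1 (chr11:94936224-94953042, plus strand) stood at 99.3, 43.8 and 57.1 CPM at day 1 and at 12180.0, 6529 and 3976 CPM at day 14. The lowest day 14 library was far above the highest of day 1, and the change was 6.86 ± 0.60 (adjusted p = 0.000434). Col3a1 went from 498, 88.1 and 102 CPM to 26391, 6693 and 4649.9 CPM (5.81 ± 0.94, adjusted p = 0.00493), and Col1a2 from 129, 60.2 and 82.4 CPM to 4114, 3804 and 1175 CPM (5.10 ± 0.56, adjusted p = 0.00110). In each of these chains replicate 1 was the highest library of both days. Col5a1, a chain of the collagen that sets fibril width, went from 53.6, 19.0 and 15.7 CPM to 1073, 727 and 432 CPM (4.69 ± 0.62, adjusted p = 0.00206). Col8a1, a short-chain collagen of vessels and wounds, went from 3.20, 2.95 and 2.84 CPM to 42.0, 64.9 and 15.5 CPM (3.80 ± 0.47, adjusted p = 0.00175). The 10 chains that did not pass lay on both sides of 0 in the plot of list members.

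Of 21 genes of collagen processing and crosslinking 10 rose and none fell, with a median of 1.54. The count was 5 without day 1 replicate 2, and the median was 0.74 without day 14 replicate 1. Bmp1, which cuts the tail from procollagen, rose from 40.3, 29.9 and 28.7 CPM to 315, 235 and 168 CPM (2.89 ± 0.28, adjusted p = 0.000603). The lysyl oxidases Loxl2 and Loxl3, which crosslink collagen, rose from 16.7, 12.2 and 9.48 CPM to 239, 149.7 and 87.4 CPM (3.67 ± 0.41, adjusted p = 0.00110) and from 4.22, 2.72 and 3.29 CPM to 39.7, 24.7 and 19.5 CPM (3.07 ± 0.34, adjusted p = 0.00110). P4ha3, a prolyl hydroxylase subunit, rose from 0.408, 0.0756 and 0.506 CPM to 62.7, 21.1 and 10.4 CPM (6.56 ± 0.87, adjusted p = 0.00223). All of these had separate days. Lox itself overlapped between days, at 91.6, 46.2 and 65.4 CPM and at 499, 110.4 and 60.5 CPM (1.76 ± 0.64, adjusted p = 0.0774). It passed without day 14 replicate 3, its lowest library (2.21, adjusted p = 0.0328, 0.0223 to 0.507 over all alternatives).

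Of 21 proteoglycan and elastic fibre genes 13 rose and none fell, with a median of 2.61. When 1 control library was left out, 9 (without day 1 replicate 2) to 16 (without day 1 replicate 1) rose. With the 6 control libraries alone 4 rose. Mfap4, a microfibril protein, went from 1.84, 1.74 and 3.03 CPM to 299, 175 and 85.4 CPM (6.43 ± 0.52, adjusted p = 0.000262). Mfap2, another microfibril protein, went from 2.38, 0.831 and 1.26 CPM to 121, 54.2 and 40.4 CPM (5.62 ± 0.58, adjusted p = 0.000821). Both had the same order of day 14 libraries, highest in replicate 1. Lum, the collagen-binding proteoglycan lumican, went from 19.5, 6.73 and 10.7 CPM to 571, 277 and 153 CPM (4.79 ± 0.62, adjusted p = 0.00194). Fn1, fibronectin, which forms the first matrix that fibroblasts climb, went from 82.8, 42.9 and 37.2 CPM to 1326, 609.9 and 298 CPM (3.81 ± 0.57, adjusted p = 0.00373).

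Matrix-cutting enzymes moved both ways: of 20 metalloproteinases and inhibitors 7 rose and 4 fell. The risen members fell to 4 without day 1 replicate 2 or without day 1 replicate 3, and the members that fell to 1 without day 1 replicate 2 and to 2 without any of day 1 replicate 1 and the 3 day 14 libraries. Mmp13, a collagenase of mouse wounds, went from 0.136, 0.151 and 0.0632 CPM to 8.57, 19.4 and 7.37 CPM (6.63 ± 0.72, adjusted p = 0.00109). Mmp14, the membrane-bound collagenase that also activates Mmp2, went from 43.4, 31.7 and 39.5 CPM to 366, 304 and 136 CPM (2.85 ± 0.35, adjusted p = 0.00169). Mmp23 went from 2.86, 1.28 and 2.21 CPM to 118, 28.7 and 20.2 CPM (4.75 ± 0.70, adjusted p = 0.00360). Mmp11 went from 4.83, 6.57 and 5.18 CPM to 62.8, 40.7 and 20.7 CPM (2.94 ± 0.43, adjusted p = 0.00360). The 4 that fell were Mmp19, Timp4, Adamts1 and Adamts9, named because they are so few. Mmp9, the gelatinase of neutrophils and wound-edge cells, stood at 3.54, 1.59 and 3.10 CPM and at 9.27, 15.5 and 7.46 CPM, higher at day 14 in every library but short of the threshold (2.00 ± 0.78, adjusted p = 0.0943). Mmp3 overlapped between days, with a change of 0.34 ± 0.83 (adjusted p = 0.800), as did the inhibitor Timp1 (0.94 ± 0.54, adjusted p = 0.242). Timp1 passed without day 1 replicate 1 (1.77, adjusted p = 0.0347, 0.0338 to 0.872 over all alternatives).

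**Figure D2:**
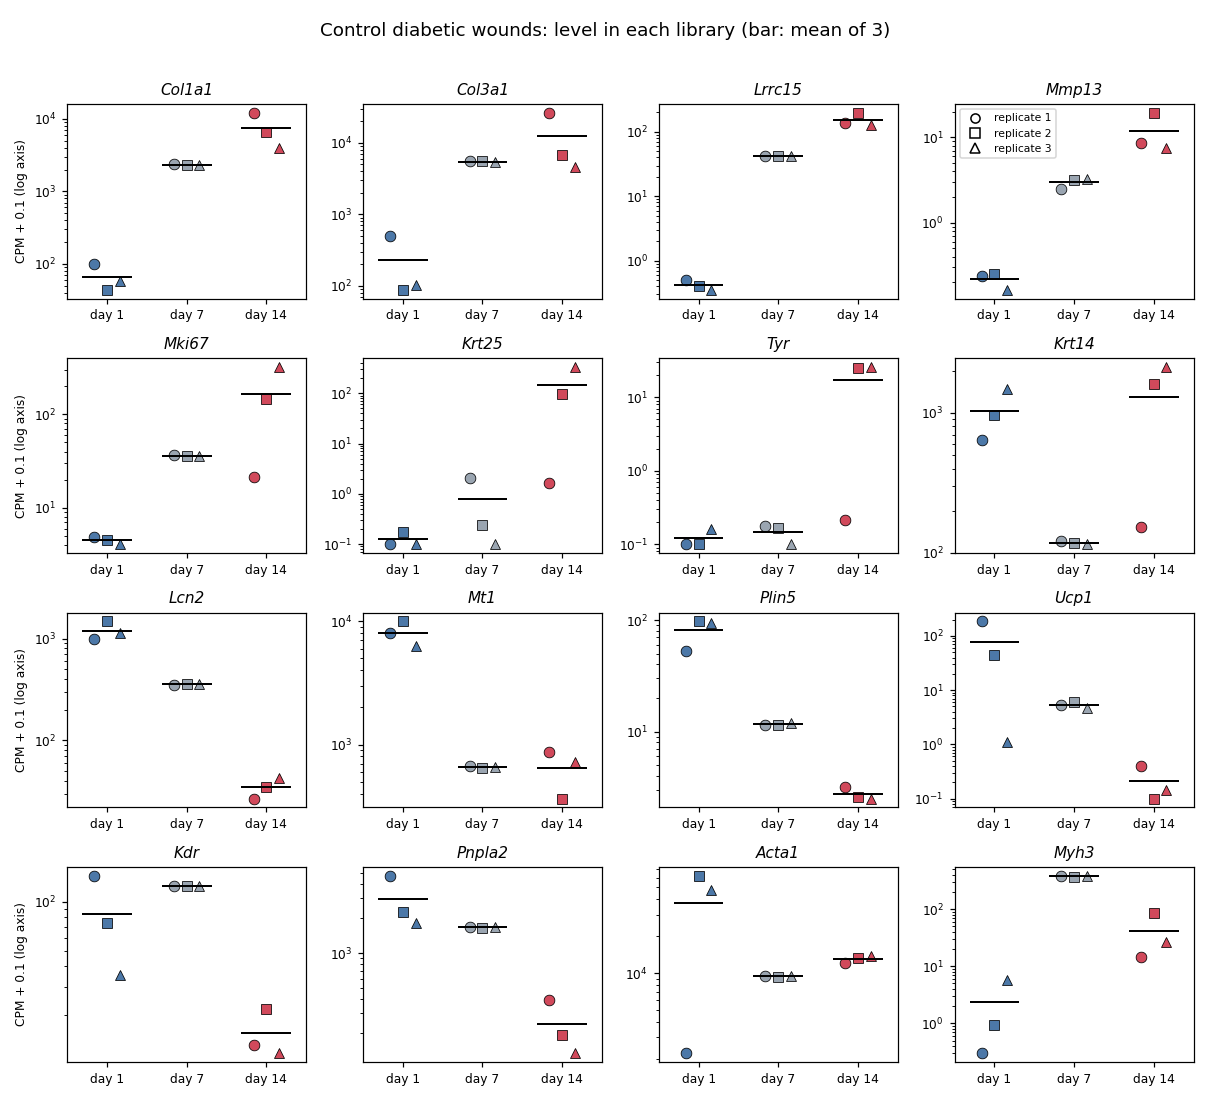
Each panel shows the CPM of 1 gene (plus 0.1, log axis) in the 9 control libraries by day, with a symbol for each replicate number and a bar at the mean of 3. Col1a1, Lrrc15 and Mmp13 have day 14 libraries far above day 1, Lcn2, Mt1 and Plin5 have them far below, and Krt25, Tyr and Krt14 show replicate 1 of day 14 well under the other day 14 libraries.

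Genes of dividing cells rose. Of 30 cell cycle genes 27 rose, none fell and 3 did not pass, with a median change of 3.14, and 20 to 29 rose when 1 control library was left out. With the 6 control libraries alone 1 passed. The mean log2 CPM of the list was 1.76, 1.80 and 1.70 at day 1 and 3.19, 4.83 and 5.57 at day 14, so that the days were separate and replicate 1 was the lowest at day 14. Mki67, a protein of dividing nuclei (chr7:135689784-135714039, minus strand), stood at 4.83, 4.46 and 3.98 CPM and at 21.1, 147 and 320.3 CPM (5.21 ± 0.82, adjusted p = 0.00432). Birc5, which acts with the mitotic kinase Aurkb, went from 1.496, 1.44 and 1.45 CPM to 10.8, 24.6 and 47.0 CPM (4.24 ± 0.63, adjusted p = 0.00375). Aurkb went from 1.496, 1.36 and 1.01 CPM to 7.29, 19.9 and 40.3 CPM (4.14 ± 0.62, adjusted p = 0.00380), and the cyclin Ccna2 from 2.31, 2.34 and 2.46 CPM to 10.1, 31.7 and 55.0 CPM (3.78 ± 0.59, adjusted p = 0.00421). The order of the day 14 libraries in these genes was that of the basal keratinocyte list, at 1167, 5642 and 7917 CPM. Its part in the rise was not tested.

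Promoters of mitotic genes are known to carry CCAAT boxes, bound by NF-Y, and a cell cycle element with the core TTTGAA or TTCGAA. Promoters of 300 bases, 250 before the start and 50 after it, were taken from RefSeq on GRCm38.p6 for 25 of the 30 cell cycle genes. CCAAT, on either strand, was in 20 of the 25 (80%), against 41.1% of the 27025 genes with a promoter. TTTGAA or TTCGAA, on either strand, was in 13 (52%), against 21.7%. The promoters of cyclin B2, which drives entry into mitosis, and of Cdc20, which brings its end, are shown because both genes were on the list, rose and hold both motifs. Ccnb2 lies at chr9:70421505-70421804 and Cdc20 at chr4:118437294-118437593, both on the minus strand, and capitals mark the motifs.
Ccnb2 promoter: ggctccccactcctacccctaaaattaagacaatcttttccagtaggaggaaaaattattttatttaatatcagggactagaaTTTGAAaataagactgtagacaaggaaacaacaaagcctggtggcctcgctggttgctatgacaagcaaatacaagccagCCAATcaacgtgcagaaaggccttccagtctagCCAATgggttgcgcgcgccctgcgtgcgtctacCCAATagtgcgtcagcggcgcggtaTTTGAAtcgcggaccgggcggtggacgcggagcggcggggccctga
Cdc20 promoter: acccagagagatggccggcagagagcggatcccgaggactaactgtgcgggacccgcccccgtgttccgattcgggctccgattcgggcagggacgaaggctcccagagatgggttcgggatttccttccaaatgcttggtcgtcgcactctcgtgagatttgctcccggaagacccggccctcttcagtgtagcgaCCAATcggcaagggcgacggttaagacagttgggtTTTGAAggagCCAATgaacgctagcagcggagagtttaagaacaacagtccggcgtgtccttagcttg
The window of Ccnb2 held 3 CCAAT and 2 TTTGAA or TTCGAA matches, and that of Cdc20 held 2 and 1. A match describes these letters and shows no binding.

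Hair follicle genes went from almost nothing to a high level in 2 of the 3 day 14 libraries. Of 21 tested genes 13 rose and none fell, with a median change of 5.51, or 5.02 with the 4 genes without any day 1 count set at their bound. The summed level was 6.19, 7.71 and 23.1 CPM at day 1 and 8.34, 673 and 1598 CPM at day 14, so that replicate 1 of day 14 lay within day 1. Counts of risen members were 4 without day 1 replicate 2 and 8 without day 14 replicate 2 or replicate 3. With the 6 control libraries alone none passed in edgeR, with 7 higher at an unadjusted p below 0.05, while 7 passed in DESeq2 and 6 in limma-voom. Members with enough counts in fewer than 3 of these 6 libraries, such as Krt35, were not tested there and are counted as not passed. Such members entered the main fit through counts in hydrogel libraries. Krt35, a keratin of the hair shaft (chr11:100092193-100096241, minus strand), had no count at day 1 and stood at 0.233, 95.4 and 128 CPM at day 14. It was at least 1180.2-fold higher over the day 14 group, against a floor of 3 counts over the day 1 group (adjusted p = 0.0114). Krt73, of the inner root sheath that guides the growing hair, also had no count at day 1 and stood at 0.0583, 43.2 and 70.0 CPM (at least 595-fold higher). Krt25, of the same sheath, had 1 count at day 1 and stood at 1.57, 96.7 and 332 CPM at day 14 (6710.4-fold, 95% counting interval 1204 to 265076, adjusted p = 0.00432). These bounds and intervals cover counting error only.

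Hes2, a repressor of the Hes family, and Tgm6, a transglutaminase, were also first by size but were not on the hair follicle list. Neither had a count at day 1. Hes2 stood at 0.175, 5.51 and 10.1 CPM at day 14 (at least 82.3-fold) and Tgm6 at 0.0583, 1.92 and 13.3 CPM (at least 78.8-fold). The calls of Krt73, Hes2 and Tgm6 were lost without day 1 replicate 2 (adjusted p = 0.0755, 0.0619 and 0.119), within ranges of 3.28e-05 to 0.142, 1.72e-06 to 0.0623 and 0.00175 to 0.193 over all alternatives. Krt73 and Tgm6 were also lost without day 1 replicate 3 (0.0554 and 0.0952), day 14 replicate 2 (0.0624 and 0.0811) and day 14 replicate 3 (0.0617 and 0.107), Hes2 without day 14 replicate 2 (0.0536) and Tgm6 without day 1 replicate 1 (0.0664). RefSeq promoters were found for 14 hair follicle genes, and 9 of them held TATAAA on either strand (64.3%), against 15.7% of all genes. That of Krt25 (chr11:99322902-99323201, minus strand) is shown, with TATAAA in capitals, as an example among the genes described here.
Krt25 promoter: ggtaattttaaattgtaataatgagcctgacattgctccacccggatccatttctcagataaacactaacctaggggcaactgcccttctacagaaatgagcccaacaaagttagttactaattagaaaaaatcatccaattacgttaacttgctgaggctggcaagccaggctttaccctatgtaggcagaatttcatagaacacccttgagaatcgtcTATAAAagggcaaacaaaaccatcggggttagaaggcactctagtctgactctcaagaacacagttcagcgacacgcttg

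Pigment cell genes followed the same libraries. Of 12 melanocyte genes 8 rose and none fell, with a median of 5.07, and the summed level was 27.0, 39.1 and 68.5 CPM at day 1 and 84.8, 599 and 534 CPM at day 14. Counts of risen members were 2 without day 1 replicate 2, and 4 without day 14 replicate 2 or replicate 3. With the 6 control libraries alone none passed in edgeR, with 6 higher at an unadjusted p below 0.05, while 4 passed in DESeq2 and 5 in limma-voom. Here too, members with enough counts in fewer than 3 of these 6 libraries, such as Tyr, were not tested there. They are counted as not passed, and entered the main fit through hydrogel libraries. Tyr, the enzyme that starts melanin synthesis (chr7:87424771-87493512, minus strand), had 1 count at day 1 and stood at 0.117, 25.03 and 25.6 CPM at day 14 (805-fold, 95% counting interval 144 to 31839, adjusted p = 0.0138). Its call was lost without day 1 replicate 2 (adjusted p = 0.0605) and replicate 3 (0.0503), within 4.55e-05 to 0.0605 over all alternatives. Oca2, a melanosome channel protein, and Tspan10, a tetraspanin of pigment cells, had no count at day 1 and stood at 0.117, 7.47 and 10.4 CPM and at 0.0583, 6.66 and 9.51 CPM at day 14 (at least 94.7-fold and 85.4-fold). Both lost their calls without day 1 replicate 2 (adjusted p = 0.0670 and 0.0501, within 1.97e-06 to 0.0763 and 3.82e-06 to 0.0501 over all alternatives), and Oca2 also without day 14 replicate 2 (0.0580) or replicate 3 (0.0560). Mlana, a melanosome protein, was separate between days at 0.136, 0.151 and 0.442 CPM and at 3.67, 27.1 and 59.97 CPM (6.91 ± 1.05, adjusted p = 0.00395). The melanocyte factor Mitf is known to bind CATGTG. Of 7 melanocyte genes with a RefSeq promoter 5 held CATGTG on either strand, against 15.9% of all genes, and that of Tyr (chr7:87493463-87493762, minus strand), the enzyme on which melanin depends, is shown with the motif in capitals.
Tyr promoter: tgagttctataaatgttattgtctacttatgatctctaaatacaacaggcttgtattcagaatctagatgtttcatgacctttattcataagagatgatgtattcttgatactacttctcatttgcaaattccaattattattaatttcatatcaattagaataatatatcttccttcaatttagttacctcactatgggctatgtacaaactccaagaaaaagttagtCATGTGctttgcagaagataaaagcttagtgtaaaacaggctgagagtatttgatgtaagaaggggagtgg

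Genes of the epidermis between follicles did not share this rise. None of 16 basal keratinocyte genes passed in edgeR, with a median of 0.07 and 1 lower at an unadjusted p below 0.05; 1 fell in DESeq2 and 0 in limma-voom. None of 24 genes of keratinocyte differentiation passed in edgeR, with a median of -0.51 and 1 higher and 3 lower at an unadjusted p below 0.05; 1 rose and 2 fell in DESeq2 and 5 fell in limma-voom. Without day 1 replicate 3 these medians were 0.63 and 0.38, and without day 14 replicate 3 they were -0.33 and -1.02. Without day 14 replicate 1, 1 gene of each list rose, and without day 1 replicate 1, 2 differentiation genes fell. Krt14, the keratin of basal cells, stood at 636, 957 and 1481 CPM at day 1 and at 152, 1609 and 2125 CPM at day 14 (0.35 ± 0.68, adjusted p = 0.745). The days overlapped because replicate 1 of day 14 lay below all of day 1. Krt10, a keratin of differentiating cells, Krt6a and Krt16, keratins of activated wound-edge cells, and Lor, the cornified envelope protein loricrin, overlapped as well, with changes of -0.97 ± 0.93, 0.27 ± 0.76, -1.44 ± 1.08 and -2.19 ± 1.19 (adjusted p = 0.486, 0.829, 0.369 and 0.216). Of 21 wound-edge genes 2 rose, Mmp13 and Stfa3, and Fosl1 fell, near the shares over all genes of 10.1% risen and 7.19% fallen. Stfa3, a protease inhibitor of a family of close copies whose counts are uncertain for that reason, went from 0.816, 1.06 and 3.29 CPM to 4.67, 22.8 and 42.6 CPM. Stfa3 did not pass without day 1 replicate 2 (0.0539), with adjusted p from 5.30e-06 to 0.0877 over all alternatives. Fosl1 did not pass without day 14 replicate 3 (0.0527), with adjusted p from 0.000207 to 0.108 over all alternatives.

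**Figure D3:**
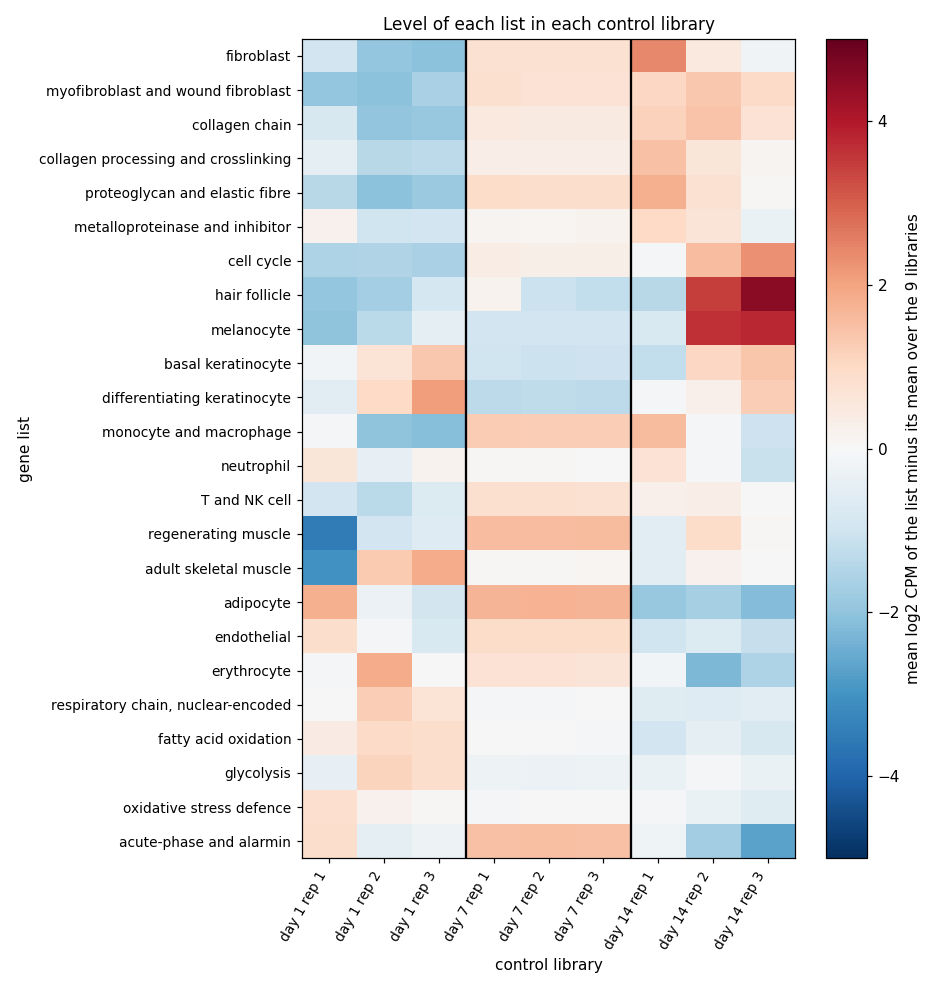
Rows are gene lists and columns the 9 control libraries; the colour is the mean log2 CPM of the list in that library minus the list's mean over the 9 libraries. Hair follicle and melanocyte genes are high in day 14 replicates 2 and 3 only, fibroblast and macrophage genes are highest in day 14 replicate 1, muscle genes are lowest in day 1 replicate 1, and the day 7 libraries are nearly alike.

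Macrophage genes depended on which libraries were used. Of 23 monocyte and macrophage genes 3 rose and none fell, with a median of 1.92, and without day 1 replicate 1 the count was 18, with 0 without day 1 replicate 2 (5 higher at an unadjusted p below 0.05), 1 without day 1 replicate 3, 2 without day 14 replicate 1 or replicate 2, and 16 with both replicate 1 libraries left out. The median was 3.04 without day 1 replicate 1 and 0.60 without day 14 replicate 1, and 11 rose in DESeq2 and 16 in limma-voom, where 1 fell. Without day 14 replicate 1, 1 fell too. The mean log2 CPM of the list was 5.08, 3.15 and 3.04 at day 1 and 6.77, 5.12 and 4.14 at day 14, so that replicate 1 was the highest library of each day. Cx3cr1, the fractalkine receptor of resident macrophages, rose from 0.272, 0.227 and 0.695 CPM to 5.83, 1.88 and 2.14 CPM (3.04 ± 0.70, adjusted p = 0.0171). Csf1r, the receptor of the macrophage growth factor, rose from 28.3, 14.7 and 20.1 CPM to 268, 81.0 and 30.3 CPM (2.63 ± 0.65, adjusted p = 0.0218). Both calls were lost without day 1 replicate 2 (adjusted p = 0.0722 and 0.0878, within 0.000304 to 0.0829 and 0.000588 to 0.116 over all alternatives), and that of Csf1r also without day 1 replicate 3 (0.0592). Adgre1, which encodes the macrophage antigen F4/80, stood at 17.2, 1.51 and 1.77 CPM and at 44.8, 20.2 and 4.41 CPM (1.79 ± 0.94, adjusted p = 0.199), and passed without day 1 replicate 1 (3.93, adjusted p = 0.0116, 0.0101 to 0.558 over all alternatives). Cd68, a lysosomal protein of phagocytes, stood at 81.3, 219 and 267 CPM and at 149, 82.0 and 45.0 CPM (-1.004 ± 0.48, adjusted p = 0.161). It passed as lower without day 14 replicate 1 (-1.55, adjusted p = 0.0457, 0.00289 to 0.800 over all alternatives).

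Markers of alternatively activated macrophages were mixed. Of 22 genes 5 rose, among them Fn1, which fibroblasts also make, and the count was 9 without day 1 replicate 1, 1 without day 1 replicate 2, 2 without day 1 replicate 3 or day 14 replicate 2, and 3 without day 14 replicate 1, when 3 fell and the median was 0.18. Stab1, a scavenger receptor, rose from 40.4, 24.3 and 17.4 CPM to 162, 70.1 and 49.7 CPM (1.82 ± 0.46, adjusted p = 0.0239), and Spp1, osteopontin, from 32.1, 7.48 and 42.7 CPM to 105, 177 and 109 CPM (2.27 ± 0.61, adjusted p = 0.0297). Both calls were lost without day 1 replicate 2 (adjusted p = 0.0887 and 0.0695, within 0.00211 to 0.165 and 0.00184 to 0.138 over all alternatives), Stab1 also without day 1 replicate 3 (0.0700) or day 14 replicate 1 (0.0503), and Spp1 without day 14 replicate 2 (0.0866) or replicate 3 (0.0535). Arg1, arginase, stood at 14.3, 16.2 and 33.8 CPM and at 7.00, 10.4 and 8.28 CPM, lower at day 14 in every library without passing (-1.30 ± 0.69, adjusted p = 0.203). Mrc1, Chil3 and Retnla overlapped between days (1.04 ± 0.96, 0.40 ± 0.95 and -0.36 ± 0.53, adjusted p = 0.467, 0.796 and 0.660). Mrc1 passed as higher without day 1 replicate 1 (3.05, adjusted p = 0.0340, 0.0243 to 0.969 over all alternatives), and Retnla as lower without day 14 replicate 1 (-1.41, adjusted p = 0.0234, 0.0171 to 1.00).

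Of 14 neutrophil genes only Lcn2 passed, and the list's median was 0.19, from -1.20 without day 14 replicate 1 to 0.73 without day 1 replicate 1. Lcn2, the iron-carrier-binding protein lipocalin 2, is made by neutrophils and by inflamed epithelium. It stood at 981, 1475 and 1139 CPM at day 1 and at 26.6, 34.6 and 42.7 CPM at day 14 (chr2:32384633-32388252, minus strand). All day 14 libraries were far below day 1, and it fell by 5.09 ± 0.42 on the log2 scale (adjusted p = 0.000262). The alarmins S100a8 and S100a9 overlapped, at 41.6, 159.6 and 143 CPM against 236, 97.7 and 21.7 CPM, and at 59.1, 32.9 and 45.6 CPM against 43.6, 16.8 and 15.3 CPM (0.09 ± 0.86 and -0.83 ± 0.65, adjusted p = 0.951 and 0.393). Csf3r, the neutrophil growth factor receptor, stood at 9.05, 2.12 and 2.53 CPM and at 28.1, 13.3 and 6.01 CPM (1.82 ± 0.75, adjusted p = 0.109), and passed without day 1 replicate 1 (2.88, adjusted p = 0.0284, 0.0195 to 0.388 over all alternatives).

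Inflammatory mediators moved both ways or did not pass. Over all genes 10.1% rose and 7.19% fell, and the counts of these short lists are near those shares. None of 8 neutrophil-attracting chemokines passed in edgeR, with a median of -0.66 and 3 lower at an unadjusted p below 0.05; 2 fell in DESeq2 and 1 rose in limma-voom. The median was 0.30 without day 1 replicate 1, when 1 rose, and -1.57 without day 14 replicate 2. In this list 1 fell without day 1 replicate 2 or replicate 3. Cxcl2 and Cxcl5 overlapped (-0.66 ± 0.74 and -0.22 ± 1.05, adjusted p = 0.559 and 0.902). Of 13 inflammatory cytokines Il11 and Tnfsf9 rose, with a median of 1.15, and of 15 inducible inflammatory enzymes and receptors Ptgs2 and Tlr2 rose and Sphk1 fell. Of the cytokines 1 rose in each fit that left out 1 control library other than day 1 replicate 3, when 2 rose. Of the enzymes and receptors 5 rose without day 1 replicate 1, 1 without day 1 replicate 3, and 0 without day 1 replicate 2, with 3 higher at an unadjusted p below 0.05. Il11 lost its call in each fit that left out 1 control library (adjusted p = 0.0587 to 0.117) and without both control replicate 1 libraries (0.0725). Ptgs2 lost its call without day 1 replicate 2 (0.0825), day 1 replicate 3 (0.0598) or both control replicate 1 libraries (0.0585), and Tlr2 without day 1 replicate 2 (0.0550). Il1b stood at 5.17, 2.04 and 3.41 CPM at day 1 and at 4.20, 12.9 and 3.64 CPM at day 14 (0.99 ± 0.70, adjusted p = 0.337). Il6 was at 2.04, 0.378 and 0.506 CPM and at 0.933, 2.90 and 1.09 CPM, and Tnf at 0.272, 0.378 and 1.39 CPM and at 0.700, 2.90 and 2.59 CPM (0.78 ± 0.69 and 1.61 ± 0.76, adjusted p = 0.453 and 0.157). With both control replicate 1 libraries left out, Cxcl5 and Il6 passed as higher (2.53 and 2.21, adjusted p = 0.0373 and 0.0317, within 0.0373 to 1 and 0.0143 to 1.000 over all alternatives), and Il6 also passed in limma-voom. Ccl2, which draws monocytes, was high in 1 library, at 54.4, 5.52 and 7.84 CPM against 8.63, 6.83 and 2.73 CPM (-1.87 ± 0.75, adjusted p = 0.103). Csf3 was at most 0.884 CPM in any control library of these days (-2.50 ± 0.97, adjusted p = 0.103). Among 18 CC chemokines Ccl8 rose, from 6.19, 1.81 and 1.896 CPM to 460.3, 58.3 and 27.1 CPM (5.82 ± 1.11, adjusted p = 0.00850), and Ccl28, an epithelial chemokine, fell (-2.17 ± 0.54, adjusted p = 0.0222). Replicate 1 was again the highest day 14 library for Ccl8. Ccl28 did not pass without day 1 replicate 3 (0.0611), day 14 replicate 2 (0.0759) or day 14 replicate 3 (0.0740), with adjusted p from 0.00128 to 0.118 over all alternatives.

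Of 16 acute-phase and alarmin genes 4 fell and none rose, with a median of -2.04: Lcn2, Orm1, Orm2 and Hp. Orm1, the plasma protein orosomucoid 1, which fat and liver make, stood at 259.6, 31.9 and 40.8 CPM and at 13.2, 4.23 and 6.19 CPM (-3.79 ± 0.77, adjusted p = 0.0107), and its close copy Orm2 makes both counts uncertain. Orm2 did not pass without day 14 replicate 2 (0.0559), day 14 replicate 3 (0.0730) or both control replicate 1 libraries left out (0.0527), with adjusted p from 0.000382 to 0.0851 over all alternatives. Hp did not pass without day 1 replicate 1 (0.0734), day 14 replicate 2 (0.0952) or day 14 replicate 3 (0.0901), with adjusted p from 0.000466 to 0.116 over all alternatives. The count of fallen members was 8 without day 14 replicate 1 and 2 without day 14 replicate 2 or replicate 3, and 2 members rose without day 14 replicate 3. The median was -0.64 without day 1 replicate 1. Saa3, the local serum amyloid, was far from even at day 14: it stood at 62.4, 13.1 and 24.5 CPM at day 1 and at 929.7, 92.8 and 5.14 CPM at day 14 (3.41 ± 1.29, adjusted p = 0.0873), and passed without day 14 replicate 3 (3.98, adjusted p = 0.0271, 0.0103 to 0.686 over all alternatives). Day 14 replicates 1 and 2 lay above all of day 1, and replicate 3 lay below all of it. Of 17 feedback genes of cytokine signalling Cish and Socs2 fell, against 7.19% fallen over all genes. Cish, which STAT5 induces, went from 37.9, 84.3 and 81.6 CPM to 9.33, 8.88 and 11.5 CPM, separate and narrow at day 14 (-2.75 ± 0.37, adjusted p = 0.00248). Socs2 did not pass without day 1 replicate 2 (0.0761), day 14 replicate 2 (0.0612) or day 14 replicate 3 (0.0672), with adjusted p from 0.00188 to 0.225 over all alternatives. Sphk1, which makes sphingosine 1-phosphate, fell from 209, 99.9 and 103 CPM to 19.4, 42.3 and 32.3 CPM (-2.11 ± 0.39, adjusted p = 0.00779).

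Of 18 T and NK cell genes 6 rose and none fell, with a median of 1.86. Thy1 led them, from 17.1, 18.9 and 18.9 CPM to 307, 123 and 136 CPM (3.40 ± 0.42, adjusted p = 0.00175), and fibroblasts express it as well. Cd4 stood at 0.272, 0.227 and 0.190 CPM and at 1.46, 1.62 and 0.910 CPM (2.54 ± 0.54, adjusted p = 0.0121), a low level in all 6 libraries. Its call was lost without day 1 replicate 2 (adjusted p = 0.0513, 0.00141 to 0.0658 over all alternatives). Cd3e, a chain of the T cell receptor complex, was lower at day 14 in every library, at 2.04, 1.36 and 1.71 CPM against 0.408, 0.513 and 0.455 CPM, without passing (-1.85 ± 0.59, adjusted p = 0.0512). The median of this list was 1.11 without day 14 replicate 1. The count of risen members was 1 without day 1 replicate 2 and 2 without day 1 replicate 3 or day 14 replicate 2.

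Fat genes were lower at day 14. Of 23 adipocyte genes 10 fell and none rose, with a median of -2.88. Without day 1 replicate 1, the library rich in fat, 9 fell and the median was -1.10, and 4 fell without day 14 replicate 2 and 5 without day 14 replicate 3. With the 6 control libraries alone 1 passed. Pnpla2, the lipase that starts the breakdown of stored fat, stood at 4711, 2294 and 1843 CPM and at 390.1, 191 and 135 CPM (-3.59 ± 0.57, adjusted p = 0.00457). Plin4, a coat protein of lipid droplets, stood at 1193, 1459 and 1015 CPM and at 89.5, 123 and 108 CPM (-3.49 ± 0.59, adjusted p = 0.00545). Both were separate between days, and Plin4 differed little among the day 1 libraries. Aqp7, the glycerol channel of fat cells, fell from 57.3, 15.3 and 5.75 CPM to 1.28, 2.14 and 1.46 CPM (-3.97 ± 0.76, adjusted p = 0.00856). Adipoq, the hormone adiponectin, spread widely at day 1, at 1634, 214 and 94.9 CPM against 123, 32.7 and 21.5 CPM, and did not pass (-3.42 ± 1.10, adjusted p = 0.0544). It passed without day 1 replicate 3 (-3.93, adjusted p = 0.0368) and without day 14 replicate 1 (-4.57, adjusted p = 0.0336), within 0.00348 to 0.274 over all alternatives. Plin5, a droplet protein of oxidative tissue that stood on the sebocyte list, fell from 52.7, 97.1 and 94.5 CPM to 3.09, 2.48 and 2.41 CPM (-4.91 ± 0.55, adjusted p = 0.00112). The rest of the sebocyte list did not share this fall. Of its 14 genes 11 had positive changes, the median was 1.95, and Plin5 alone fell. Soat1 rose, a call lost without day 1 replicate 2 or day 14 replicate 2 (adjusted p = 0.0572 and 0.0541). Lep, leptin, was low throughout, at 2.38, 0.831 and 1.64 CPM and at 0.350, 0.812 and 0.409 CPM (-1.58 ± 0.60, adjusted p = 0.0881).

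The genes that fell most by size included further genes of fat and muscle. Ucp1, the heat-producing uncoupler of brown and beige fat, stood at 185, 44.3 and 1.01 CPM at day 1 and at 0.292, 0 and 0.0455 CPM at day 14 (-9.48 ± 1.77, adjusted p = 0.00790), and passed in every fit that left out 1 control library. Mrap, which serves the corticotropin receptor of fat cells, fell from 985, 95.8 and 59.9 CPM to 15.6, 2.86 and 1.96 CPM (-5.77 ± 1.23, adjusted p = 0.0126). Ephx2, a soluble epoxide hydrolase, fell from 1322, 156 and 71.5 CPM to 29.7, 7.82 and 7.96 CPM (-5.06 ± 1.07, adjusted p = 0.0124). Replicate 1 was far above the other day 1 libraries in each of these. Chrna2, a nicotinic receptor subunit, Mogat1, a monoacylglycerol acyltransferase, Acaa1b, a peroxisomal thiolase, Tshr, the thyrotropin receptor, and Klb, the FGF21 co-receptor, had the same pattern, with changes from -6.15 for Chrna2 to -5.02 for Klb. Mogat1 did not pass without day 14 replicate 2 (0.0550) or day 14 replicate 3 (0.0524), with adjusted p from 7.84e-06 to 0.0550 over all alternatives. Acaa1b did not pass without day 14 replicate 2 (0.0716) or day 14 replicate 3 (0.0702), with adjusted p from 7.78e-06 to 0.141 over all alternatives. Tshr did not pass without day 14 replicate 2 (0.0598), with adjusted p from 7.61e-06 to 0.0945 over all alternatives. Klb did not pass without day 1 replicate 1 (0.0833), day 1 replicate 2 (0.0589), day 14 replicate 2 (0.0986) or day 14 replicate 3 (0.0941), with adjusted p from 0.000418 to 0.130 over all alternatives. Fscn2, an actin-bundling protein, was instead highest in replicate 2, at 1.77, 47.0 and 13.5 CPM against 0.350, 0.683 and 0.773 CPM (-5.05 ± 0.95, adjusted p = 0.00816). Myh7 and Myl3, the slow muscle myosin heavy chain and light chain, stood at 46.4 and 50.7 CPM in day 1 replicate 3 and at no more than 0.544 CPM in the other day 1 libraries. Without that library neither passed (-2.20, adjusted p = 0.393, 0.000730 to 0.393 over all alternatives for Myh7, and -1.19, adjusted p = 0.250, 3.24e-05 to 0.250 for Myl3). Myh7 was also lost without any 1 of the day 14 libraries (adjusted p = 0.0589 to 0.104), and Myl3 without day 14 replicate 2 (0.0927) or replicate 3 (0.0886).

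Adult muscle genes did not pass as a group. Of 28 genes only Myh7 passed, with a list median of -1.35, and without day 1 replicate 1, the library poor in muscle, 17 fell. Without day 1 replicate 3, 3 rose and none fell, and without day 1 replicate 2 the median was -0.82. In DESeq2 7 fell and in limma-voom 11. Acta1, skeletal actin, stood at 2243, 62069 and 47477 CPM at day 1 and at 12191, 13309.6 and 13891 CPM at day 14 (-1.48 ± 0.87, adjusted p = 0.251), and passed without day 1 replicate 1 (-1.95, adjusted p = 0.00961, up to 0.671 over all alternatives). Myh4, the fast myosin heavy chain, stood at 1109.5, 45419 and 28326 CPM and at 2654, 4943 and 8677 CPM (-2.18 ± 0.99, adjusted p = 0.142), and passed in the same way (-2.66, adjusted p = 0.0120, up to 0.425 over all alternatives). Of 20 genes of regenerating muscle 7 rose and 1, Itga7, fell, with a median of 1.16, and 4 rose without day 1 replicate 2 or day 14 replicate 2, the median being 0.54 without the latter. Mymk and Mymx, which fuse myoblasts, went from 0, 0.151 and 0.190 CPM to 1.28, 11.3 and 5.14 CPM (5.65 ± 1.17, adjusted p = 0.0115) and from 0.0680, 0.453 and 0.190 CPM to 4.96, 4.78 and 1.91 CPM (4.06 ± 0.85, adjusted p = 0.0118). Chrng, the fetal subunit of the acetylcholine receptor, went from 0, 0.0756 and 0.190 CPM to 2.10, 9.99 and 2.78 CPM (5.71 ± 1.14, adjusted p = 0.0102), and Myl4, an embryonic light chain, from 10.3, 9.29 and 9.54 CPM to 72.8, 101 and 52.2 CPM (2.99 ± 0.50, adjusted p = 0.00537). Myh3, embryonic myosin, went from 0.204, 0.831 and 5.75 CPM to 14.5, 84.1 and 26.8 CPM (4.22 ± 1.13, adjusted p = 0.0286), and its call was lost without day 1 replicate 2 (adjusted p = 0.104) or day 14 replicate 2 (0.0951), within 0.000247 to 0.114 over all alternatives.

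Genes of mitochondrial respiration and fat burning were lower. Of 22 nuclear-encoded respiratory chain genes 15 fell and none rose, with a median of -1.30, and of 20 genes of fatty acid oxidation 12 fell and none rose, with a median of -1.48. None of either list passed with the 6 control libraries alone in edgeR, with 16 and 14 lower at an unadjusted p below 0.05, while 16 and 14 fell in DESeq2 and 21 and 14 in limma-voom. Without day 1 replicate 2 the counts were 5 and 7, without day 14 replicate 2 the respiratory count was 9, and without day 14 replicate 3 the oxidation count was 7. Cycs, cytochrome c, fell from 668, 567 and 372 CPM to 116, 122 and 174 CPM (-1.94 ± 0.31, adjusted p = 0.00435). Acadl, a dehydrogenase of fatty acid oxidation, stood at 619.7, 654 and 599.6 CPM and at 156, 145 and 148 CPM, with little spread on either day (-2.03 ± 0.31, adjusted p = 0.00386). Cd36, the fatty acid transporter, fell from 2697, 1229 and 839.5 CPM to 173, 211 and 128 CPM (-3.19 ± 0.45, adjusted p = 0.00283). Muscle and fat are rich in these genes, and day 1 replicate 1 held the most adipocyte RNA and the least muscle RNA of the day 1 libraries, as given above. Their part in the fall was not tested. Ppargc1a, which drives mitochondrial genes, fell from 13.3, 117 and 50.2 CPM to 3.85, 5.55 and 4.64 CPM (-3.65 ± 0.77, adjusted p = 0.0121).

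Of 21 glycolysis genes 5 fell and none rose, with a median of -1.33, and 12 fell without day 1 replicate 1, 1 without day 1 replicate 2 or day 14 replicate 3, and 2 without day 1 replicate 3 or day 14 replicate 2. Its median was -0.75 without day 1 replicate 2. Ldha, lactate dehydrogenase, fell from 3363, 4787 and 3417 CPM to 991, 1186 and 897 CPM (-1.88 ± 0.36, adjusted p = 0.00816). Of 20 hypoxia genes 3 rose and 3 fell, against 10.1% and 7.19% over all genes, with a median of -0.62. Bnip3, which marks mitochondria for removal in low oxygen, fell from 194, 577 and 478 CPM to 63.3, 55.0 and 37.1 CPM (-2.97 ± 0.61, adjusted p = 0.0114). Loxl2 and P4ha1, collagen enzymes on the same list, rose with Car12. The calls thus went both ways, while 16 of the 20 changes were negative and 4 positive. Of 20 genes of insulin signalling and glucose handling Igfbp5 rose, and Insr and Pck1 fell. These counts are near the shares over all genes, 10.1% risen and 7.19% fallen. Insr lost its call in each fit that left out 1 control library. Pck1, which fat uses for glycerol synthesis, fell from 1607, 316 and 144 CPM to 63.9, 14.6 and 13.2 CPM (-4.46 ± 0.98, adjusted p = 0.0140), and lost its call without day 14 replicate 2 (adjusted p = 0.0541, 4.93e-06 to 0.0950 over all alternatives). Igf1, the insulin-like growth factor of macrophages and fibroblasts, overlapped (1.56 ± 0.85, adjusted p = 0.215), and passed without day 1 replicate 1 (3.35, adjusted p = 0.0131, 0.00781 to 0.707 over all alternatives).

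The metallothioneins Mt1 and Mt2 were high at day 1. Mt1, the metallothionein that binds zinc, copper and other metals, stood at 8065, 9964 and 6238 CPM at day 1 and at 862, 364 and 718 CPM at day 14 (-3.61 ± 0.46, adjusted p = 0.00191). Mt2 stood at 55.3, 122 and 92.3 CPM and at 13.9, 5.64 and 18.5 CPM (-2.80 ± 0.42, adjusted p = 0.00386). Both were separate between days by a wide gap and passed in every fit that left out 1 control library. Slc39a14, a zinc and iron importer of inflamed tissue, also fell, and Slc40a1, the iron exporter ferroportin, rose (2.29 ± 0.44, adjusted p = 0.00916), among 15 genes of metallothioneins and iron handling, of which 11 did not pass and whose median was -0.09, from -1.27 without day 14 replicate 1 to 0.60 without day 1 replicate 1. Slc39a14 kept its call only without day 1 replicate 1. Hmox1, which breaks down haem, did not change detectably (-0.04 ± 0.56, adjusted p = 0.966). Metallothionein promoters are known to hold metal response elements, here searched as TGCACNC or TGCGCNC on either strand. That of Mt1 (chr8:94178839-94179138, plus strand) is shown because it held 3 matches, in capitals. The motif was in 6 of 13 genes of the list with a RefSeq promoter (46.2%), against 28.2% of all genes with one and 38.9% of tested genes with one.
Mt1 promoter: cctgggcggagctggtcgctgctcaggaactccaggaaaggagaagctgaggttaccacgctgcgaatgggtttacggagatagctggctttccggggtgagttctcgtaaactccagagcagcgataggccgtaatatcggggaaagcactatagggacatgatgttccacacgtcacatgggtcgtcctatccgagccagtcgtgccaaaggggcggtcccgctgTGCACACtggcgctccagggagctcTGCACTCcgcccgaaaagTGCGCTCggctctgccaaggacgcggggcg

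Of 20 genes of oxidative stress defence 5 fell and none rose, with a median of -0.85, and 2 fell without day 1 replicate 2, day 14 replicate 2 or day 14 replicate 3. The median was -0.37 without day 1 replicate 1. Srxn1, sulfiredoxin, fell from 369, 315 and 221 CPM to 75.9, 46.3 and 30.9 CPM (-2.53 ± 0.40, adjusted p = 0.00445). Sod2, the mitochondrial superoxide dismutase that inflammation induces, fell from 373, 272 and 222 CPM to 94.9, 109 and 121 CPM (-1.39 ± 0.24, adjusted p = 0.00626). Of 19 genes of the integrated stress and unfolded protein responses 4 fell, and 8 fell without day 1 replicate 1 and 2 without day 1 replicate 2, day 14 replicate 2 or day 14 replicate 3. Xbp1, a factor of secretory cells under load, stood at 541, 498 and 464 CPM and at 124, 140.3 and 108 CPM, narrow on both days (-1.99 ± 0.26, adjusted p = 0.00191). Among 20 immediate early genes Egr1 rose, from 43.4, 29.0 and 49.1 CPM to 101, 110.1 and 136 CPM (1.53 ± 0.25, adjusted p = 0.00494), and Maff and Fosl1 fell. Of 16 clock genes Dbp and Per3 rose (1.80 ± 0.33 and 2.15 ± 0.43, adjusted p = 0.00734 and 0.00983), while Arntl and Cry2 fell. Those falls were lost without day 1 replicate 2, day 1 replicate 3, day 14 replicate 2 or day 14 replicate 3. The counts of the immediate early and clock lists are near the shares over all genes, 10.1% risen and 7.19% fallen. The hour at which wounds were taken is not given in the sources used here.

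Some vessel genes and haemoglobin genes fell. Of 20 endothelial genes 6 fell and 1 rose, with a median of -1.10. Without day 1 replicate 1 the median was -0.19 and 4 fell, and with the 6 control libraries alone 1 fell in edgeR. Kdr, the main receptor of VEGF on endothelium (chr5:75932827-75978458, minus strand), stood at 144, 73.4 and 35.2 CPM and at 12.9, 21.8 and 11.6 CPM (-2.42 ± 0.48, adjusted p = 0.00978). Flt1, which traps VEGF, stood at 129, 162 and 73.4 CPM and at 19.6, 44.2 and 35.9 CPM (-1.84 ± 0.37, adjusted p = 0.0107). Cldn5, of endothelial tight junctions, fell from 249.5, 215 and 136 CPM to 43.9, 33.0 and 29.3 CPM (-2.47 ± 0.53, adjusted p = 0.0130). These passed in every fit that left out 1 control library, and in each the highest day 14 library lay under the lowest of day 1. Pecam1, the endothelial adhesion molecule CD31, fell from 588, 266 and 139 CPM to 64.6, 104 and 61.3 CPM (-2.09 ± 0.55, adjusted p = 0.0282), a call kept only without day 1 replicate 3 and otherwise lost when 1 control library was left out (adjusted p = 0.0546 to 0.0902, 0.00178 to 0.146 over all alternatives). Vegfa was lower at day 14 in every library without passing, at 139, 107 and 74.8 CPM against 30.5, 46.0 and 55.6 CPM (-1.26 ± 0.42, adjusted p = 0.0622). Nrp2, a VEGF co-receptor of lymphatic and other cells, rose from 34.4, 14.1 and 18.5 CPM to 46.3, 123 and 125 CPM (2.15 ± 0.43, adjusted p = 0.0105). Of 23 angiogenic factors and receptors Vegfc, Nrp2, Fgf7, Aplnr and Esm1 rose, and Pgf, Kdr and Flt1 fell. The median of that list was -0.01, and without day 1 replicate 2, 1 rose and 3 fell. Over all genes 10.1% rose and 7.19% fell. Aplnr was also the endothelial gene that rose.

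Of 7 tested erythrocyte genes 4 fell, with a median of -2.52, or -1.25 without day 1 replicate 2. Hbb-bs, a beta globin, stood at 617, 1700.2 and 343 CPM and at 304, 65.6 and 59.5 CPM (-2.59 ± 0.73, adjusted p = 0.0347). The day 14 libraries lay below all of day 1, by little for replicate 1. The globins and Alas2 lost their calls without day 1 replicate 2, the library with most of this RNA, or without day 14 replicate 2, when none of the list passed in edgeR and 3 and 5 were lower at an unadjusted p below 0.05. The globins also lost theirs without day 14 replicate 3, when 1 member, Alas2, passed. With all libraries 5 fell in DESeq2 and 6 in limma-voom. For Hbb-bs the adjusted p was then 0.139, 0.108 and 0.101, within 0.00173 to 0.151 over all alternatives. Counts of the near-identical globins Hba-a1 and Hba-a2 are uncertain, since pairs that fit both were not counted.

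The 3 control libraries of day 7 lay between the days for many of these genes, and they differed from each other far less, with a coefficient of variation of 4.69%. They were left out of the fit for that reason and are given as values. Of the 1733 genes that rose, 1331 had a day 7 mean between those of days 1 and 14, 326 were highest at day 7 and 76 lowest, and of the 1240 that fell 760 were between, 342 lowest at day 7 and 138 highest. Col1a1 was at 2392, 2319 and 2324 CPM at day 7, Lrrc15 at 42.4, 41.9 and 41.3 CPM, and Lcn2 at 351, 360.3 and 354 CPM, all between the days. Mt1 was already down at 667, 648 and 663 CPM. Myh3, at 383, 369.8 and 382 CPM, and Mymk, at 16.1, 17.1 and 17.1 CPM, were highest at day 7. Hair and pigment genes were near their day 1 level, with Krt25 at 1.95, 0.137 and 0 CPM and Tyr at 0.0751, 0.0684 and 0 CPM. Adipoq stood at 1361, 1356 and 1361 CPM, and the adipocyte list had a mean log2 CPM of 9.56, 9.59 and 9.58, against 9.64, 7.58 and 6.94 at day 1 and 5.98, 6.20 and 5.69 at day 14.

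The same days were set beside each other in hydrogel wounds to see where the control change differed. In hydrogel wounds 2988 genes rose (17.3%) and 2889 fell (16.8%), and 1652 genes passed in both arms in the same direction and 79 in opposite directions. The change itself differed between arms for 409 genes (2.37%), being higher in control wounds for 360 (2.09%) and lower for 49 (0.284%). Of the 409, 190 had risen in control wounds, 20 had fallen and 199 had not passed. This count rests on few libraries: it was 0 without hydrogel day 14 replicate 2 or replicate 3 in edgeR, with 2425 and 2362 genes at an unadjusted p below 0.05, and 18 without hydrogel day 14 replicate 1, 14 without control day 1 replicate 2, 49 without control day 1 replicate 3 and 22 without control day 14 replicate 2. It was 158, 100 and 109 without hydrogel day 1 replicates 1, 2 and 3, 240 without control day 14 replicate 1, 893 without control day 14 replicate 3 and 1029 without control day 1 replicate 1.

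Matrix genes made up many of the named differences, but several of the lists from which genes were named are matrix lists. By list, 5 of 23 collagen chains and 7 of 21 collagen processing genes passed this test, higher in control wounds. So did 10 of 23 monocyte and macrophage genes and 6 of 14 neutrophil genes, against 2.09% over all genes. Mmp13 was at 1.12, 1.21 and 0.359 CPM in hydrogel wounds at day 1 and at 0.704, 0.463 and 0.342 CPM at day 14, where the change did not pass (-0.75, adjusted p = 0.318), and the changes of the arms differed by 7.38 ± 0.91 (adjusted p = 0.00814). Col8a1 was at 15.4, 11.5 and 10.8 CPM and at 4.85, 4.26 and 3.52 CPM, and Loxl3 at 8.94, 9.49 and 12.6 CPM and at 5.20, 5.56 and 5.26 CPM, both falling with hydrogel and rising without it (differences of 5.31 ± 0.64 and 3.96 ± 0.46, both adjusted p = 0.00814). Col1a1 rose in both arms, from 208, 209 and 264.68 CPM to 1074, 875 and 724 CPM with hydrogel, and by less there (difference 4.82 ± 0.70, adjusted p = 0.0176). Rian, an imprinted noncoding RNA, was at 19.8, 12.1 and 17.2 CPM and at 18.3, 16.7 and 16.5 CPM with hydrogel, while in control wounds it rose from 7.55, 9.07 and 6.45 CPM to 119.5, 73.9 and 79.6 CPM (difference 3.47 ± 0.39, adjusted p = 0.00814). Stab1, Mefv, the inflammasome protein pyrin, Castor2, an arginine sensor of the mTOR pathway, and Serpinb1a, an inhibitor of neutrophil proteases, rose in control wounds and fell in hydrogel wounds (differences of 4.86, 7.62, 3.21 and 4.93, adjusted p = 0.0161, 0.00814, 0.00814 and 0.00933). The rise of Castor2 in control wounds did not pass without day 1 replicate 2 (0.0900), day 1 replicate 3 (0.0589), day 14 replicate 1 (0.0534), day 14 replicate 2 (0.0701) or both control replicate 1 libraries left out (0.0573), with adjusted p from 0.00310 to 0.700 over all alternatives. Serpinb1a stood at 89.9, 41.9 and 86.6 CPM in hydrogel wounds at day 1, against 2.72, 3.48 and 5.94 CPM in control wounds, so that the arms already differed in level at day 1. So did Mmp13, Col8a1, Loxl3, Col1a1 and Rian, whose hydrogel libraries of day 1 all lay above the control ones. A difference of changes includes such a gap. The cell cycle list behaved alike in count, with 27 of 30 risen in control wounds and 29 in hydrogel wounds, and none of its members passed the test of the difference. Hair follicle members rose in 13 of 21 without hydrogel and in 20 with it, and none passed the test of the difference. Over all genes 2.37% passed that test, so 0 in lists of this size is near that share. The median change of the hair follicle list was 5.51 in control and 10.34 in hydrogel wounds, and that of the cell cycle list 3.14 and 3.29. Changes of genes without a day 1 count depend on the fit.

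**Figure D4:**
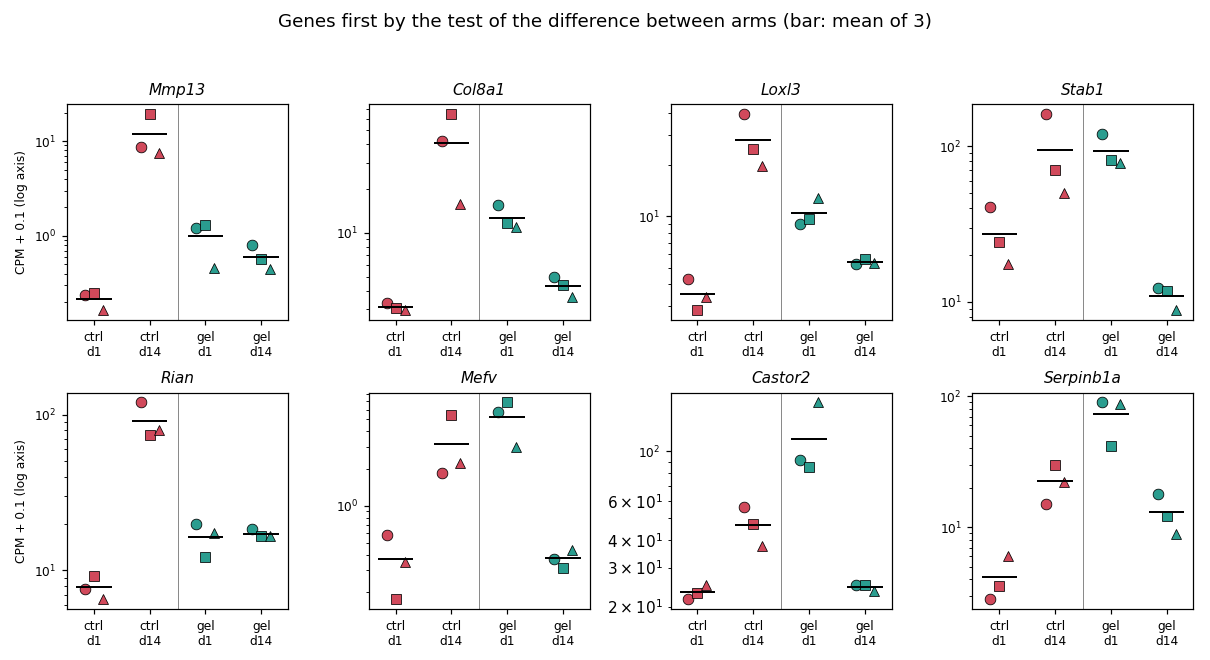
Each panel shows 1 of the 8 genes first by the test of the difference between arms, as CPM plus 0.1 on a log axis, in control (red) and hydrogel (green) libraries of days 1 and 14, with a bar at the mean of 3. In control wounds all 8 are higher at day 14, and in hydrogel wounds Rian is about level (0.13 on the log2 scale) and the other 7 have negative changes, of which that of Mmp13 did not pass.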

How the data were processed

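Messenger RNA libraries had been made from wound tissue with the Hieff NGS mRNA kit, per the labels' protocols. The tools named in the submitters' processing notes are featureCounts 2.0.6, HISAT2 2.2.1, SAMtools 1.9, Trim Galore 0.6.10 and FastQC 0.11.9, with mm10 as the genome build. The values used are raw counts of read pairs per gene symbol that the authors deposited, made over exons of GENCODE M25 without strand, per the file headers, so that overlapping antisense genes cannot be told apart. The filter behind the alignments counted is not stated. Mitochondrially encoded transcripts and the RAW264.7 libraries were not analysed here.

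Groups were taken from titles. The 12 libraries of days 1 and 14 in both arms were fitted in R 4.3.3 with edgeR 4.0.16 (filterByExpr with a minimum count of 10 and a minimum total of 15, TMM, robust quasi-likelihood F test, 4 group means, 8 residual degrees of freedom, Benjamini-Hochberg adjustment over all genes tested, threshold 0.05). The contrast was control day 14 minus control day 1, and its difference from the hydrogel change was tested in the same fit. Mean log2 CPM used a prior count of 2. A group with no count was set to 3 counts for a bound, and 1 to 3 counts got an exact 95% counting interval. The 54 lists (951 symbols, 942 in the files, 901 tested) were written from general knowledge, and members and lists were chosen with earlier results of these data known. The genes the text names were the 12 largest changes in each direction that passed, reached a mean of 5 CPM, separated the days and kept their sign without any 1 library (predicted genes left out), the first 4 members (smallest adjusted p) of any list where 2 or more passed, a set panel, and the first 8 for the difference between arms; some are omitted. Members of short lists named beside their count were chosen after their values were seen. CPM sets each count relative to 1 M counts. Alternatives were RLE scaling, no filter or a stricter one (1 CPM in 6 libraries), DESeq2 1.42.0, limma 3.58.1 voom with quality weights, the 6 control libraries alone, all 18 wound libraries, the replicate number as a block, a 2-fold minimum, each library left out, and both control replicate 1 libraries left out. DESeq2 and voom on the 6 control libraries alone were added after the data were seen. The fit was tested on simulated counts with known changes. Promoters came from RefSeq on GRCm38.p6, and coordinates of genes are those in the files.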

Additional observations from a re-analysis of the deposited data

Results flagged for a closer look

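The change from day 1 to day 14 differed between control and hydrogel wounds for 409 genes (2.37%) by the test of the difference in edgeR. Of 203 genes chosen for naming 47 were among them, but 8 had been chosen by this test itself. Values below are the log2 change in control wounds minus that in hydrogel wounds. Some of these genes already differed in level between arms at day 1, as given above. The count was 0 without hydrogel day 14 replicate 2 or replicate 3, with 2425 and 2362 genes at an unadjusted p below 0.05, so the calls depend on those libraries. Among collagens and their enzymes the difference was 6.80 for P4ha3, 6.15 for Col3a1, 5.31 for Col8a1, 4.82 for Col1a1, 4.13 for Lox, 3.96 for Loxl3, 3.84 for Col1a2, 3.41 for Col5a1, 3.05 for Loxl2 and 1.83 for Bmp1. Among other matrix genes and metalloproteinases the difference was 7.38 for Mmp13, 5.70 for Cthrc1, 5.51 for Lum, 4.87 for Timp1, 4.65 for Mmp23, 3.66 for Tnc, 3.32 for Fn1, 3.23 for Mfap4 and 2.57 for Mmp11. Among regenerating muscle genes the difference was 6.91 for Mymk, 6.55 for Chrng, 5.96 for Mymx and 4.13 for Myl4. Among macrophage and other leukocyte genes the difference was 8.19 for Chil3, 8.12 for Csf3r, 7.62 for Mefv, 5.94 for Ccr2, 5.84 for Spp1, 5.09 for Ctss, 4.93 for Serpinb1a, 4.86 for Stab1, 4.67 for C1ra, 4.25 for Csf1r, 3.33 for Cd80 and 3.02 for Cd68. Among genes of inflammation and stress the difference was 11.92 for Saa3, 7.48 for Cxcl2, 7.18 for Ccl8, 5.77 for Il1b, 4.54 for Tlr2 and 3.59 for Hmox1. Among other genes the difference was 3.47 for Rian and 3.21 for Castor2. The change was lower in control wounds for the rest, with -3.95 for Cd3e, -2.83 for Cish, -2.43 for Sphk1 and -1.51 for Egr1.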

How the results depend on the processing

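The count of 2973 changed genes stayed within 1.5 times under RLE scaling, without a filter, with a stricter filter, with the replicate block and with DESeq2 on the 6 control libraries. It was 4770 with DESeq2, 6480 with limma-voom and quality weights, 5699 with all 18 wound libraries, 556 with a 2-fold minimum, 5260 with both control replicate 1 libraries left out, 77 with the 6 control libraries in edgeR and 5207 with those in limma-voom, the last added after the data were seen. Leaving out 1 control library gave 1018 to 4119. The 409 genes that differed between arms became 1635, 4159, 1844, 33 and 1248 with DESeq2, limma-voom, all 18 libraries, the 2-fold minimum and both replicate 1 libraries left out, and 0 to 1029 when 1 library was left out. Whether replicate numbers pair the samples cannot be told from 3 libraries a day. Deviations of same-numbered libraries correlated at 0.342, 0.0819 and 0.322. Day 1 replicates 1 and 3 correlated best with their own numbers, and day 1 replicate 2 with day 14 replicate 3. With the replicate block 2972 genes changed and 718 differed between arms. Some genes that had not passed turned sign, of which Cxcl5 passed as higher with both replicate 1 libraries left out, and the cause was not tested. Under limma-voom, both replicate 1 libraries left out and limma-voom on 6 libraries, Cxcl2 was at 0.23, 0.18 and 0.17, Cxcl5 at 2.14, 2.53 and 2.07, Hmox1 at 0.19, 0.15 and 0.20, and S100a8 at -1.02, -1.28 and -1.05. S100a8 was at -0.70 with the replicate block, and Chil3 at -0.020 with both replicate 1 libraries left out. With 1 control library left out the log2 change ran from -1.21 to 0.26 for Cxcl2, -1.93 to 2.12 for Cxcl5, -0.91 to 0.59 for S100a8, -0.73 to 3.05 for Mrc1, -1.14 to 1.56 for Chil3, -0.054 to 0.40 for Acta2, -0.58 to 1.72 for Mmp3, -0.18 to 0.88 for Krt14, -0.13 to 1.05 for Krt6a, -2.26 to 0.059 for Krt16 and -0.66 to 0.81 for Hmox1.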
